A study of Mus musculus with 11 samples.

Results

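The nuclear genes of oxidative phosphorylation were examined in ribosome-bound RNA of mouse cerebellum, complex by complex. Members were all genes whose symbol named a structural subunit of NADH dehydrogenase (Nduf with the letter a, b, c, s or v), of succinate dehydrogenase (Sdha to Sdhd), of cytochrome bc1 (Uqcr), of cytochrome c oxidase (Cox4 to Cox8) or of ATP synthase (Atp5), together with Cyc1 and Cycs, and 8 symbols ending in -ps were left out. This gave 91 of the 55421 listed genes: 40 in complex I, 4 in complex II, 9 in complex III, 19 in complex IV, 18 in complex V, and cytochrome c. All libraries came from whole cerebellum at postnatal day 56, and all mice carried Pcp2Cre, a constitutive Cre driven by the promoter of the Purkinje cell gene Pcp2, and Rpl22HA/HA, a ribosomal protein that Cre converts to a tagged form. The 4 KO mice (genotype Pcp2Cre;Tie2flox/flox;Rpl22HA/HA) also carried floxed alleles of the angiopoietin receptor Tie2, against 7 WT mice without them, which are controls that carry Cre and tag. An antibody against the tag pulled down the ribosomes, so that the RNA of Purkinje cells, the output neurons of the cerebellar cortex, was enriched and then sequenced. Each library goes by its group and its animal's tag, and since nothing beyond the tags says that they came from separate animals, p-values measure the spread between these libraries.

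Oxidative phosphorylation takes place in the inner mitochondrial membrane. Complexes I and II pass electrons from NADH and succinate to ubiquinone, complex III hands them to cytochrome c, and complex IV hands them to oxygen, while complex V uses the proton gradient built on the way to make ATP. Each complex but II mixes subunits encoded in mitochondrial DNA, which cytosolic ribosomes do not translate, with nuclear ones. In complex I the nuclear ones include core subunits with bacterial relatives, in complex III the catalytic Cyc1 and Uqcrfs1 and in complex V the catalytic F1 head, beside smaller accessory or supernumerary subunits, while all nuclear subunits of complex IV are supernumerary. Purkinje cells fire spontaneously at high rates and have a high demand for ATP.

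Reads in genes numbered 2.58 to 4.2 M in the KO libraries and 4.09 to 5.14 M in the WT libraries. The labels give 3 batches, with 2 KO and 1 WT in batch 1, 1 KO and 1 WT in batch 2, and 1 KO and 5 WT in batch 3, and the log2 ratio of the mean total, KO over WT, was -0.31, -0.05 and -0.86 in that order. Purkinje markers were present, with a summed level over 15 genes of 6030 to 8690 CPM (reads brought to equal library size with TMM factors) in KO and 6200 to 7360 CPM in WT. Of these 15 genes 4 were higher and 1 lower in KO, where 10.9% of all 13375 tested genes were higher and 13.4% lower. Pvalb, a calcium buffer, was higher at a log2 fold change of 0.46 ± 0.12 (adjusted p = 0.0121), and at 0.02 ± 0.11 (adjusted p = 0.956) with the log2 library total as a further term. Car8 likewise went from 0.36 ± 0.10 to 0.00 ± 0.10 with that term. Foxp2 and the lower marker Lhx1 kept most or all of their difference, though neither was called with that term. Foxp2 went from 0.51 ± 0.12 to 0.41 ± 0.18, and Lhx1 from -0.45 ± 0.11 to -0.54 ± 0.17. Tek, the gene of Tie2, had 21 reads over the 4 KO and 93 over the 7 WT and was at 0 in at least 1 library of each group, which is too few to check the labels. Markers of other cells were higher in KO more often than lower, to be read beside the same shares over all tested genes. For endothelial and mural cells, with 1 of 8 higher, the share was near the 10.9% over all tested genes. Of 14 granule cell markers 9 were higher, with summed levels of 800 to 2000 CPM in KO and 686 to 1140 CPM in WT, and of 12 Bergmann glia and astrocyte markers 7 were higher, with 461 to 1260 CPM in KO and 369 to 590 CPM in WT. For 11 tested oligodendrocyte markers 4 were higher (329 to 1010 CPM in KO, 277 to 736 CPM in WT), for 9 of microglia 3 (20.3 to 127 and 23.9 to 56.6 CPM), for 8 of endothelial and mural cells 1 (30.7 to 128 and 20.8 to 122 CPM), for 6 of interneurons and unipolar brush cells 3 (63.1 to 167 and 32.3 to 79.4 CPM), and for 5 of choroid plexus 2 (268 to 608 and 274 to 428 CPM). None of these markers was lower, and none was at 0 in all libraries, while Zic2, Olig2, Aif1, P2ry12, Kdr, Cdh5, Pdgfrb, Kcnj8, Abcb1a, Eomes, Pax2, Sst, Slc6a5, Grm2 and Folr1 were at 0 in some. Their part in the results on the oxidative phosphorylation genes was not tested.

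Together the members took 1.08% ± 0.0295 of the reads in KO and 0.953% ± 0.0933 in WT (SD, n = 4 and 7). In reads, however, KO F371, M374 and M456 had 36714, 36270 and 28568 and KO M390 had 43474, against 41776 to 44297 in WT. WT libraries thus spanned a narrow band of member reads over a wide band of totals. In shares of all reads, complex I took 0.509% ± 0.0189 in KO and 0.438% ± 0.0455 in WT. Complex IV took 0.144% ± 0.0105 in KO and 0.117% ± 0.0141 in WT, and complex V 0.191% ± 0.00767 in KO and 0.175% ± 0.0166 in WT. Complex III took 0.123% ± 0.00184 in KO and 0.116% ± 0.0113 in WT. Complex II stood apart, with 0.0932% ± 0.00548 in KO and 0.0959% ± 0.0063 in WT.

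Both directions of difference occurred within the pathway. Of 86 members that passed the filter on low counts, 21 were higher and 4 lower in KO at an adjusted p under 0.05 by edgeR's quasi-likelihood test in a model of batch and genotype, where 10.9% of all 13375 tested genes were higher, 13.4% lower and 24.4% either. The median log2 fold change over the members was 0.29, against -0.02 over all tested genes. By symbol, the 21 higher genes were 12 supernumerary subunits of complex I, 3 small subunits of complex III, 3 of complex IV, 2 of complex V and cytochrome c itself. The 12 include Ndufa4, known as a subunit of complex IV. The 4 lower ones were Ndufv1 and Ndufs8 of the core of complex I, and Uqcrc1 and Cyc1 of complex III. In these libraries, which hold RNA of many cells each, fewer cells of a type and less RNA per cell cannot be told apart. The counts rested on single libraries: without KO M456 or without WT M379, the lone WT of batch 1, edgeR called 0 members, with 6 and 42 at an unadjusted p under 0.05. Without KO M390, WT M386 or WT M476 it called 35, 36 and 39 members higher, and 10, 10 and 6 lower.

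Promoters of 3 of these genes are shown because nuclear respiratory factors and ETS factors are known regulators of this pathway, and because the 3 genes stand for different outcomes in KO: Cox6a1 and Ndufs5 were higher and Ndufv1 lower. Each run is the 250 bases before the RefSeq start of the gene on GRCm38.p6, on the minus strand for all 3, at chr5:115348959-115349208 for Cox6a1, chr4:123718187-123718436 for Ndufs5 and chr19:4012756-4013005 for Ndufv1. Capitals mark matches, on either strand, to the NRF1 letters (GCGC, any base, TGCGC) or the ETS letters (CCGGAAG).
Cox6a1: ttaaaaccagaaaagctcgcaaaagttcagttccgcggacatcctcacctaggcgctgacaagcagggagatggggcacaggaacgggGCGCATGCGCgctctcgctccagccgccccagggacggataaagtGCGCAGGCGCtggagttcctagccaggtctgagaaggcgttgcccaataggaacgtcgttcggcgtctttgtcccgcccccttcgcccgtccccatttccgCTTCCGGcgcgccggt
Ndufs5: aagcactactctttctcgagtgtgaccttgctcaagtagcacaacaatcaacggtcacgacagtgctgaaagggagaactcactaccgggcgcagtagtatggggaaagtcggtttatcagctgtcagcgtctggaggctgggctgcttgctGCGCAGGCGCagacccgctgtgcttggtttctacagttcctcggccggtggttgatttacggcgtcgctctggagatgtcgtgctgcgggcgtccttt
Ndufv1: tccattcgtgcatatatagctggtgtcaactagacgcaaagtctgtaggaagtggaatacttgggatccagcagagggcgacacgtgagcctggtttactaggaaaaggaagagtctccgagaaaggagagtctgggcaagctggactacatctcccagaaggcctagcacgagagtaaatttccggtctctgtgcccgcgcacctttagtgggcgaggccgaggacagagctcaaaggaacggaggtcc
Cox6a1 held 2 NRF1 matches and 1 ETS match, Ndufs5 held 1 NRF1 match, and Ndufv1 held neither. A window of 300 bases, 250 before and 50 after the start, was available for 68 members. NRF1 letters were found in 17 of them (25%), against 1402 of 27025 genes with a window (5.19%), and ETS letters in 17 (25%), against 2683 (9.93%). The letters AAGATGGC of YY1, whose first 3 can overlap the last 3 of the ETS letters, were found in 9 (13.2%), against 862 (3.19%). Among 17 higher members with a window 4 held the NRF1 letters (23.5%), and among 3 lower ones 1 did (33.3%). The same counts held for ETS letters. YY1 letters were in 1 of the 17 higher (5.88%) and 0 of the 3 lower. A match describes letters in a window and is not a bound site.

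Complex I gave the most calls and had the most tested members, with 12 higher and 2 lower of 39. Complex III had 3 higher and 2 lower of 9. Over all tested genes 10.9% were higher and 13.4% lower. By symbol the tested members of complex I were 7 core and 32 supernumerary subunits, Ndufa4 among the latter. None of the core was higher and 2 were lower, with a median log2 fold change of -0.16, while 12 supernumerary ones were higher and none lower, with a median of 0.33. This division was drawn with results known and is a description.

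Ndufv1, the flavin-binding subunit that oxidises NADH, had 696, 639, 1059 and 423 reads in KO F371, M374, M390 and M456, against 1101 to 1182 reads in WT (median 1144). In reads all 4 KO libraries lay below the lowest WT library, KO M390 by the smallest gap. In CPM the groups overlapped, at 170 to 250 in KO and 233 to 279 in WT. Scaled to the totals Ndufv1 averaged 203 ± 34.2 CPM in KO and 254 ± 14.9 CPM in WT, a log2 fold change of -0.41 ± 0.10 (SE, adjusted p = 0.0114). Ndufs8, an iron-sulphur subunit next to the ubiquinone site, had 463, 433, 768 and 211 reads in the same KO libraries and 698 to 823 in WT (median 752). Here KO M390 lay inside the WT range and the other KO libraries below it. Its fold change was -0.52 ± 0.16 (adjusted p = 0.0249). The other core subunits did not pass. Ndufs1, the iron-sulphur subunit at the NADH end, was at -0.16 ± 0.10 (adjusted p = 0.263). Ndufs7, which carries the last iron-sulphur cluster before ubiquinone, was at 0.28 ± 0.12 (adjusted p = 0.104). In reads, all 7 core genes were below the whole WT range in KO F371, M374 and M456, and 6 of the 7 were inside it in KO M390. Such counts were not made over all tested genes. Median reads over all tested genes were 82%, 79.1%, 97.1% and 51.2% of the batch's WT mean in KO F371, M374, M390 and M456. Reads below the WT range thus need not mean a lower level, and Ndufs7 was among these genes.

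The 32 supernumerary genes were mixed before scaling. In reads, 8, 8, 2 and 1 of them were above the WT range in KO F371, M374, M390 and M456, 18, 20, 28 and 4 inside it, and 6, 4, 2 and 27 below it. Ndufa9 and Ndufa10 lay below it in KO F371, M374 and M456, and Ndufv3 in all 4 KO libraries, as the core genes did in most. These counts in reads, too, were not made over all tested genes. Ndufa1, a small membrane subunit, had 355, 343, 341 and 325 reads in KO F371, M374, M390 and M456, against 320 to 349 in WT (median 335). Both groups overlapped and spanned nearly the same narrow range, although the totals differed up to the 55.1% that KO M456 had of its batch's WT mean. Scaled, the same gene averaged 104 ± 20.5 CPM in KO and 74.3 ± 6.18 CPM in WT, a log2 fold change of 0.49 ± 0.15 (adjusted p = 0.0269). Ndufb5, of the distal membrane arm, had 674, 703, 667 and 582 reads in KO and 606 to 674 in WT (median 621). Its CPM did not overlap, at 158 to 234 in KO and 124 to 157 in WT, and its fold change was 0.51 ± 0.12 (adjusted p = 0.00861). Ndufs4, a matrix-arm subunit whose loss in mice gives a Leigh-like encephalopathy, also did not overlap in CPM, at 193 to 242 in KO and 162 to 191 in WT, with 0.31 ± 0.10 (adjusted p = 0.0361). In reads both genes were below the whole WT range in KO M456, with 582 against a WT minimum of 606 for Ndufb5, and 602 against a WT range of 764 to 818 for Ndufs4.

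Ndufs5, an intermembrane-space subunit, was the one called member whose reads were themselves above the WT range in most KO libraries. It had 140, 129, 67 and 86 reads in KO F371, M374, M390 and M456, against 42 to 80 in WT (median 58). KO M390 lay inside the WT range and the other KO libraries above it. The mean was 32.3 ± 11.3 CPM in KO and 13.7 ± 3.61 CPM in WT, a log2 fold change of 1.01 ± 0.28 (adjusted p = 0.0183), with within-batch log2 ratios of 1.02, 0.07 and 1.45 in batches 1, 2 and 3. In the WT libraries the same gene had the highest count in M379 and the lowest in M480, which had the largest total. The remaining 7 higher subunits of complex I lay between 0.43 and 0.51: Ndufa2, Ndufa5 and Ndufa13 of the arm that reaches the matrix or its junction, Ndufb3, Ndufb7 and Ndufb10 of the distal membrane arm, and Ndufc2. Ndufa4, listed under complex I by symbol but known as a subunit of complex IV, was at 0.45 ± 0.13 (adjusted p = 0.0223), with 149 ± 26 CPM in KO and 108 ± 9.52 CPM in WT. Its paralog Ndufa4l2, known from hypoxia, had 18, 9, 2 and 0 reads in KO and 6 to 16 in WT, and was at -1.46 ± 0.82 (adjusted p = 0.199).

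Complex II, the one complex that is entirely nuclear and also an enzyme of the tricarboxylic acid cycle, gave 0 of 4 calls by edgeR, with 3 at an unadjusted p under 0.05. Its flavoprotein Sdha had 1073, 1090, 1706 and 828 reads in KO F371, M374, M390 and M456, against 1273 to 2026 in WT (median 1783). KO M390 was inside the WT range and the other KO libraries were below it. The fold change of Sdha was -0.24 ± 0.11 (adjusted p = 0.109). Sdhb, the iron-sulphur subunit, was at -0.33 ± 0.12 (adjusted p = 0.0546), and the membrane anchors Sdhc and Sdhd at 0.24 ± 0.11 (adjusted p = 0.108) and 0.04 ± 0.09 (adjusted p = 0.787). The median over the 4 was -0.10.

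Complex III held both directions at once. Cyc1, the haem subunit that passes electrons to cytochrome c, had 560, 463, 909 and 301 reads in KO F371, M374, M390 and M456. WT had 968 to 1063 (median 999), so the groups did not overlap in reads. In CPM they overlapped, at 121 to 215 in KO and 204 to 247 in WT. Cyc1 averaged 159 ± 41 CPM in KO and 223 ± 17.4 CPM in WT, a log2 fold change of -0.59 ± 0.13 (adjusted p = 0.0072). Uqcrc1, a core protein of the matrix side, had 231, 202, 431 and 134 reads in KO and 409 to 451 in WT (median 430). KO M390 was inside the WT range and the others below it, and the fold change was -0.57 ± 0.16 (adjusted p = 0.0168). Its partner Uqcrc2 was at -0.28 ± 0.11 (adjusted p = 0.0734), and Uqcrfs1, the Rieske iron-sulphur protein, at 0.15 ± 0.09 (adjusted p = 0.218). On the other side stood the small subunits. Uqcrh, the hinge protein that helps dock cytochrome c, had 509, 528, 509 and 494 reads in KO and 482 to 514 in WT (median 492), overlapping groups with almost equal counts. In CPM it averaged 156 ± 32.4 in KO and 109 ± 8.69 in WT, with a fold change of 0.53 ± 0.14 (adjusted p = 0.0128). Uqcrq and Uqcr10 were higher as well, at 0.48 ± 0.14 (adjusted p = 0.0218) and 0.38 ± 0.13 (adjusted p = 0.0481), while Uqcrb was at 0.42 ± 0.19 (adjusted p = 0.121) and Uqcr11 at 0.32 ± 0.15 (adjusted p = 0.127).

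Cytochrome c, the carrier between complexes III and IV that also acts in apoptosis, differed from most members in its spread among the WT libraries. The variance of its WT reads was 36.2 times their mean, against a median of 1.27 over the tested members. Cycs had 516, 547, 673 and 343 reads in KO F371, M374, M390 and M456, against 290 to 664 in WT (median 405). In WT the 5 libraries of batch 3 had 290 to 450 reads, against 554 in M379 of batch 1 and 664 in M386 of batch 2. It averaged 152 ± 11 CPM in KO and 98.9 ± 31.9 CPM in WT, with a log2 fold change of 0.41 ± 0.14 (adjusted p = 0.0462) and within-batch log2 ratios of 0.23, 0.05 and 0.76.

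In complex IV 3 of 16 tested members were higher and none lower, where 10.9% of all 13375 tested genes were higher and 13.4% lower. Cox4i1, the largest nuclear subunit, had 583, 610, 576 and 558 reads in KO F371, M374, M390 and M456, against 564 to 587 in WT (median 575). Reads overlapped almost fully, while CPM averaged 178 ± 36.4 in KO and 127 ± 9.43 in WT, a log2 fold change of 0.49 ± 0.13 (adjusted p = 0.0143). Cox6a1 and Cox6b1, small subunits of the cytosolic face, were at 0.47 ± 0.14 (adjusted p = 0.0228) and 0.43 ± 0.13 (adjusted p = 0.0266). For Cox6a1 the reads of all 4 KO libraries, 430 to 454, lay inside the WT range of 425 to 464. Cox8a was at 0.35 ± 0.14 (adjusted p = 0.07) and Cox7b at 0.27 ± 0.11 (adjusted p = 0.0958).

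Isoform genes known from other tissues were a separate group within complex IV. None of the 5 tested was called by edgeR, none had an unadjusted p under 0.05 except Cox6b2, and their median log2 fold change was -0.20. Cox4i2, the isoform of lung and of low oxygen, had 340, 326, 424 and 138 reads in KO F371, M374, M390 and M456, against 344 and more in WT (median 395). In reads KO M390 was inside the WT range and the others were below it, KO M456 furthest. In CPM only KO M456 was below the WT range of 68.3 to 106, at 55.4, with the other KO libraries at 96.8 to 100. The within-batch log2 ratios of Cox4i2 were 0.03, 0.02 and -0.58 in batches 1, 2 and 3. Its fold change was -0.20 ± 0.17 (adjusted p = 0.412). Cox6b2, known from testis, had 212, 226, 299 and 71 reads in KO and 295 to 461 in WT (median 361), at -0.62 ± 0.25 (adjusted p = 0.0794). Cox6a2 of heart and muscle had 15, 9, 76 and 9 reads in KO and 13 to 58 in WT (median 20), and its high values were KO M390 and WT M476. Cox7a1, also of heart and muscle, was at 0.30 ± 0.16 (adjusted p = 0.184) beside 0.24 ± 0.13 (adjusted p = 0.175) for Cox7a2, the form of most tissues. Cox7b2 of testis had 0 to 21 reads in KO and 5 to 34 in WT. Cox8b of muscle had 0 reads in KO and 5 in WT, and Cox8c of testis had none in any library, which allows up to 3 reads or 0.0659 CPM over all 11. Of the 5 members not tested, the others were Ndufb4c with 3 reads in KO and 8 in WT, Cox6c2 with 21 in KO and 48 in WT, and a second identifier of Atp5o without reads.

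**Figure D1:**
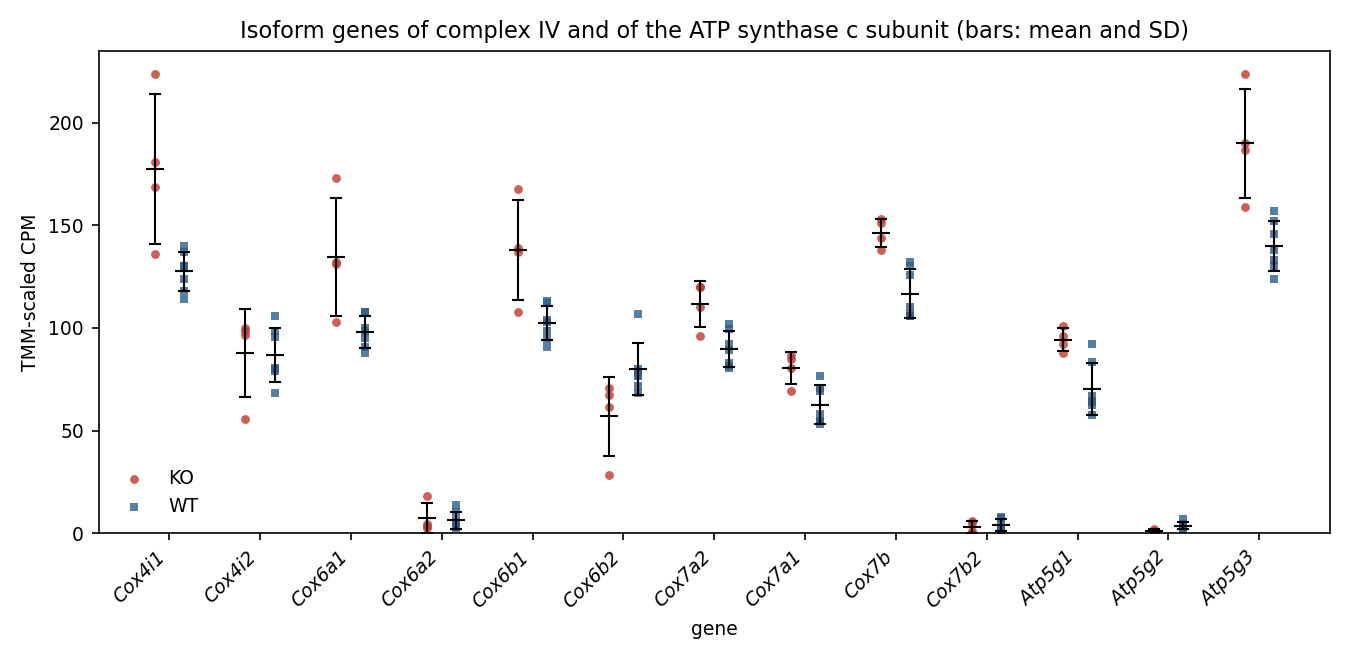
Level in TMM-scaled CPM (y axis) of isoform genes of complex IV and of the ATP synthase c subunit (x axis), 1 point per library, KO left of WT, with mean and SD as bars. CPM is not divided by gene length, so points compare groups within a gene; Cox6a2 shows KO M390 at 18 CPM above the other KO libraries, and Cox4i1, Cox6a1, Cox6b1 and Atp5g3 are higher in KO.

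In complex V 2 of 17 tested members were higher and none lower, a share of higher genes near the 10.9% over all tested genes. The 5 genes of the catalytic F1 head had a median log2 fold change of -0.15, of 0.07 without WT M379, with within-batch medians of -0.38, -0.02 and 0.10 in batches 1, 2 and 3, and edgeR called none, with 2 at an unadjusted p under 0.05. Atp5b, the catalytic beta subunit, had 953, 854, 1454 and 844 reads in KO F371, M374, M390 and M456, against 1515 to 1671 in WT (median 1611), so the groups did not overlap in reads. Scaled, it averaged 303 ± 45 CPM in KO and 354 ± 18.5 CPM in WT, at -0.20 ± 0.10 (adjusted p = 0.152). Its CPM overlapped, at 254 to 344 in KO and 331 to 376 in WT. Atp5a1, the alpha subunit, was at -0.15 ± 0.15 (adjusted p = 0.467) and Atp5c1, the gamma subunit of the turning shaft, at -0.24 ± 0.10 (adjusted p = 0.0901). Atp5e, the small epsilon subunit, was at 0.40 ± 0.14 (adjusted p = 0.0558). Of the 3 genes that encode the same mature c subunit of the proton-driven ring, Atp5g3 was higher, with 653, 631, 671 and 558 reads in KO against 606 to 674 in WT (median 623). Its CPM did not overlap, at 159 to 224 in KO and 124 to 157 in WT, and its fold change was 0.44 ± 0.12 (adjusted p = 0.0166). Atp5g1 was at 0.29 ± 0.13 (adjusted p = 0.116), and Atp5g2 had 1 to 9 reads in KO and 8 to 30 in WT, at -1.48 ± 0.71 (adjusted p = 0.136). Among 5 small membrane subunits Atp5mpl was higher, at 0.45 ± 0.15 (adjusted p = 0.0363), and the median was 0.40. The 4 genes of the peripheral stalk had a median of 0.15 and no call.

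**Figure D2:**
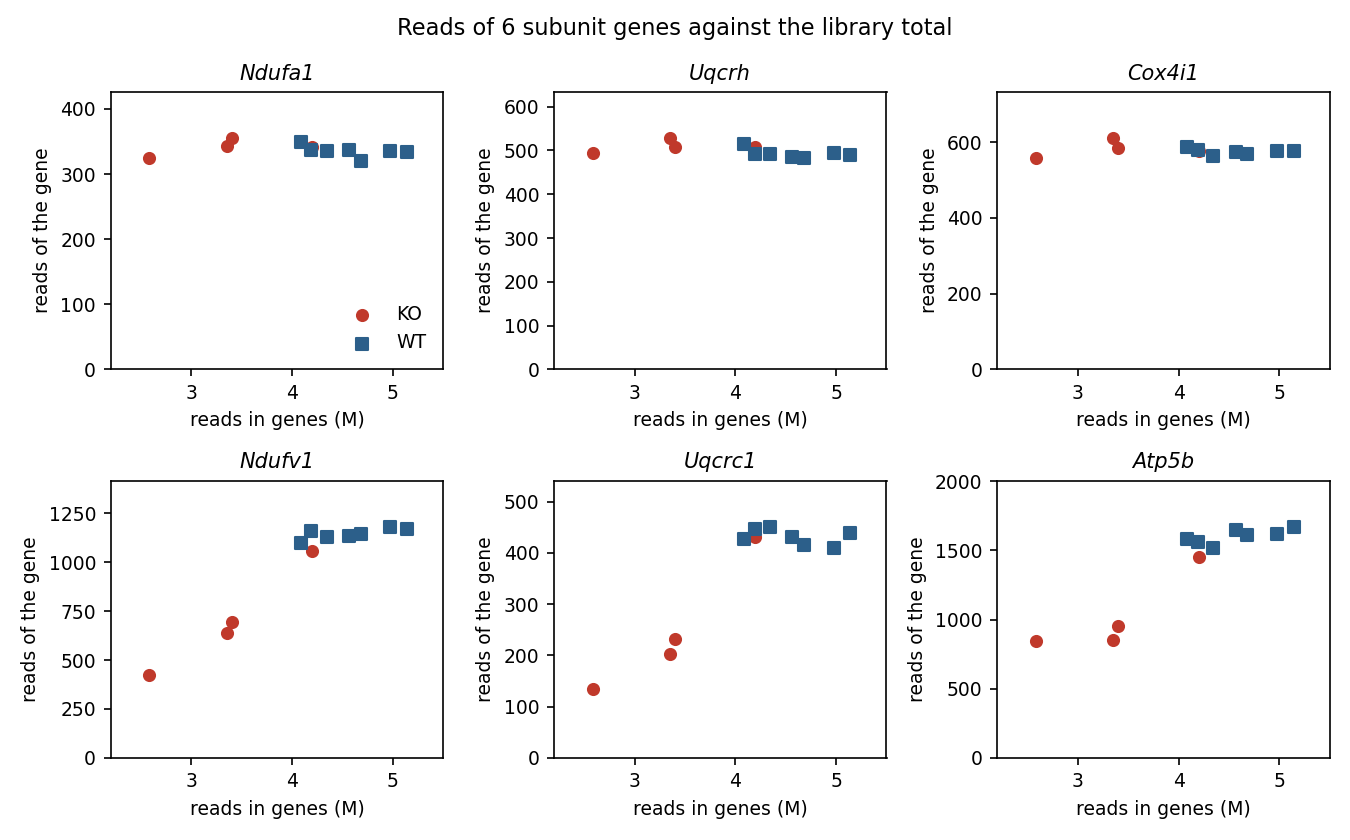
Unscaled reads of 6 subunit genes (y axis, from 0) against the reads in genes of each library in M (x axis), 1 point per library, KO and WT marked. Ndufa1, Uqcrh and Cox4i1 stay at 325 to 355, 494 to 528 and 558 to 610 reads in KO and 320 to 349, 482 to 514 and 564 to 587 in WT, while Ndufv1, Uqcrc1 and Atp5b lie far below the WT libraries in KO F371, M374 and M456 and near them in KO M390.

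Within batches the medians of complexes I, III, IV and V moved with the difference in totals, and that of complex II did not. In batch 2, where KO M390 and its WT library had nearly equal totals, the median log2 ratio of the members was 0.04, and it was 0.02 to 0.06 in complexes I, III, IV and V and -0.02 in complex II. In batch 1 complex I had a median of 0.21, complex III 0.19, complex IV 0.23 and complex V 0.18, against -0.25 in complex II. In batch 3, with the widest gap in totals, those medians were 0.53, 0.56, 0.48, 0.40 and -0.01. The complex II median lay between opposed genes, with Sdhc at 0.12, -0.01 and 0.48 and Sdhb at -0.44, -0.03 and -0.43 in batches 1, 2 and 3. Nor was it particular to complex II: core genes of complex I had medians of -0.25, -0.02 and -0.17, and F1 genes -0.38, -0.02 and 0.10. The lower genes kept to the same batches: Cyc1 was at -0.70, -0.06 and -0.85 in batches 1, 2 and 3, and Uqcrc1 at -0.76, -0.03 and -0.76.

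The same can be read from unscaled reads. As a share of the WT mean of their own batch, KO F371, M374, M390 and M456 had 81.1%, 79.9%, 96.7% and 55.1% of the total. Supernumerary genes of complex I kept more, with medians of 97.7%, 96.8%, 101% and 80.4%, and the small subunits of complex III more still, with 97.7%, 102%, 102% and 88.9%. Core genes of complex I kept less in F371, M374 and M456, with 62.6%, 66.8% and 47.6%, and 96.5% in M390. The core and catalytic genes of complex III had 55.6%, 48.4%, 97.7% and 39.2%, and the F1 genes 62.1%, 63.9%, 96.5% and 57.7%. Over all tested genes the medians were 82%, 79.1%, 97.1% and 51.2%. KO M390 was thus near its WT library for every kind of subunit.

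**Figure D3:**
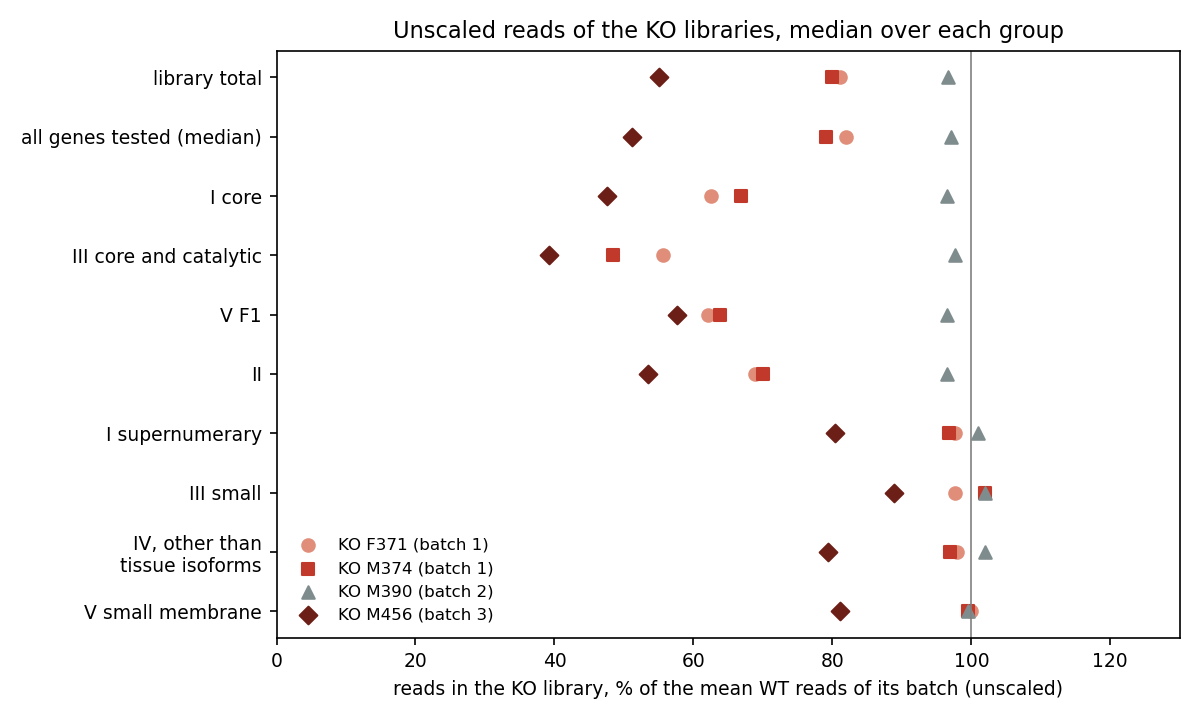
Unscaled reads of each KO library as a percentage of the mean WT reads of its batch (x axis), as the median over each group of subunits (y axis), beside the library total and the median of all tested genes. In KO F371, M374 and M456 the supernumerary subunits of complex I, the small ones of complexes III and V, and those of complex IV other than tissue isoforms stay at 79.4% to 102%. Core, F1 and complex II genes lie at 39.2% to 70%, and KO M390 stays near 100% throughout.

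Because KO and WT differed in total, the slope of each level on the log2 library total was fitted in the 7 WT libraries alone. A slope of 0 means reads in proportion to the total, and a slope of -1 means the same number of reads at any total, since the level divides by the total. The median slope over the 86 members was -1.15, against 0.05 over all tested genes, and 82 members had a slope under -0.5, where 35.9% of all genes did; this limit was chosen after the values were seen. By complex the medians were -1.16 in I, -0.73 in II, -1.05 in III, -1.15 in IV and -1.16 in V. With 7 libraries edgeR called no slope after adjustment, in members or elsewhere, and 57 of 86 members had an unadjusted p under 0.05, where 15.6% of all genes did. Within the 5 WT libraries of batch 3 the medians were -1.15, -0.82, -1.05, -1.13 and -1.19 in the same order.

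**Figure D4:**
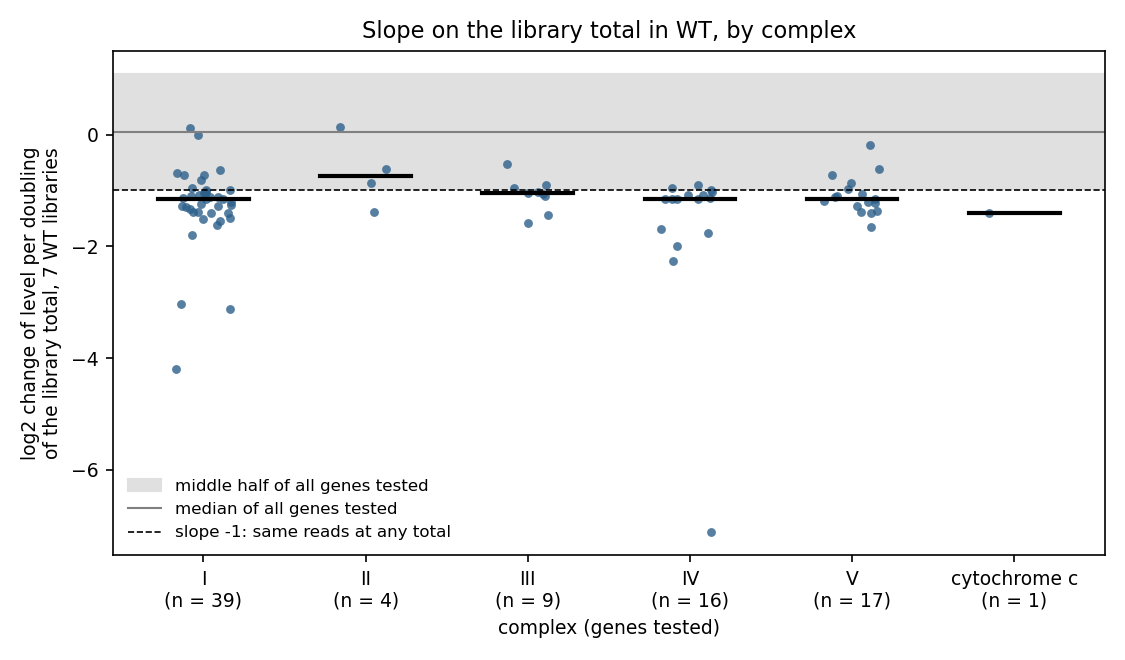
Slope of each tested member on the log2 library total over the 7 WT libraries (y axis) by complex (x axis), with the complex median as a bar, the interquartile range of all tested genes (-0.98 to 1.09) in grey and a dashed line at -1. Medians of complexes I, III, IV and V lie from -1.16 to -1.05 and that of complex II at -0.73, all below the median of all genes at 0.05.

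Single genes show what such a slope is made of. Cox4i1 had a slope of -0.95 ± 0.38 (SE) and WT reads with a variance of 0.0959 times their mean, where independent counting of identical samples gives about the mean. Ndufa1 had -1.04 ± 0.46 and 0.213, and Uqcrh -1.03 ± 0.40 and 0.218. How duplicate reads were handled is not named in the labels or notes, so whether near-equal reads, and the CPM fold changes and slopes that follow from them, stand for the RNA or for the making of the counts cannot be told apart. A variance under the mean was found in 37 of 86 members, where 2.83% of all tested genes had one, and the median ratio was 1.27 in members and 7.77 over all genes. It was low in complexes III (0.553), IV (0.965) and I (1.15), and higher in V (1.69) and II (2.66). At the other end, Ndufs1 had a slope of 0.12 ± 0.42, Sdha of 0.14 ± 0.53 and Atp5a1 of -0.19 ± 0.46, large catalytic or core subunits, but the small supernumerary Ndufb2 also had a flat slope of 0.00 ± 0.82. Other core or catalytic subunits were not flat, such as Ndufs8 at -1.40 ± 0.36, Sdhb at -1.39 ± 0.34 and Uqcrc1 at -1.07 ± 0.43. Median slopes were -1.05 in the core genes of complex I, -1.23 in its supernumerary ones and -0.73 in the F1 genes. The steepest of all tested members was Cox6a2 at -7.12 ± 1.73 with an unadjusted p of 0.00258, in a gene of 13 to 58 WT reads. Cycs had -1.40 ± 1.16 over all WT libraries and 0.76 within batch 3, and a variance of 36.2 times the mean.

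With the log2 library total added to batch in the comparison of KO and WT, edgeR called 0 of 86 members and 0 of 13375 genes, and an unadjusted p under 0.05 was found in 1 member and in 1841 genes (13.8%). The medians of complexes I, III, IV and V were then -0.03, -0.06, -0.03 and -0.08, and that of complex II -0.13. The supernumerary genes of complex I then had a median of -0.01 and the small subunits of complex III 0.00. The core genes of complex I were at -0.16 and the core and catalytic genes of complex III at -0.37. Lower genes kept part of their difference without passing the test, with Cyc1 at -0.40 ± 0.19 (adjusted p = 0.384), Uqcrc1 at -0.41 ± 0.22 (adjusted p = 0.433), Ndufv1 at -0.28 ± 0.14 (adjusted p = 0.398) and Ndufs8 at -0.29 ± 0.22 (adjusted p = 0.569). Ndufs5 was at 0.16 ± 0.35 (adjusted p = 0.868). Total and genotype are tied in these libraries, since 3 of the 4 KO totals lie below every WT total, so their shares in a difference cannot be told apart. The slopes and the KO comparison use the same WT libraries and are set side by side only.

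**Figure D5:**
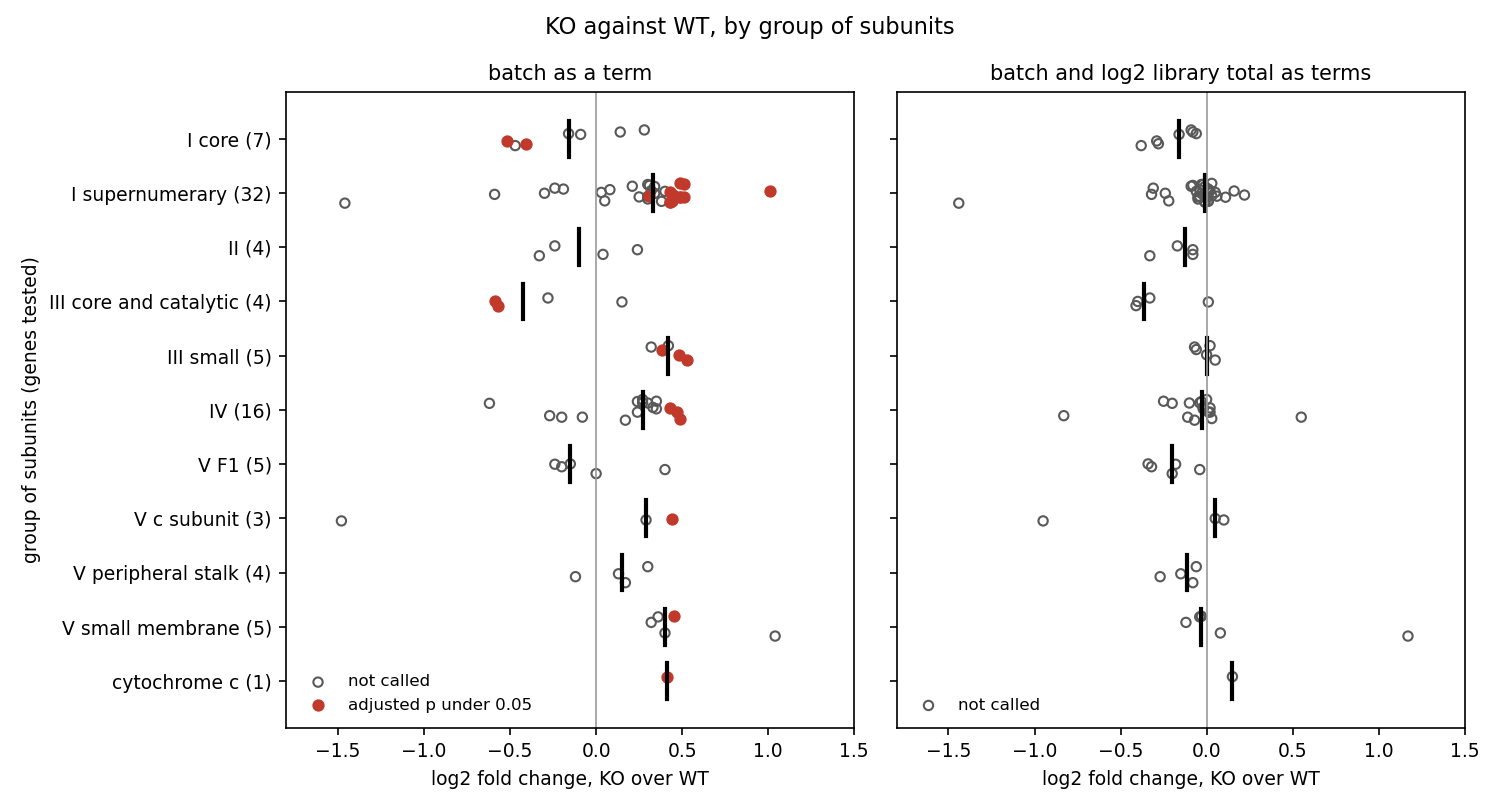
Log2 fold change, KO over WT, of each tested member (x axis) by group of subunits (y axis), with batch as a term on the left and with batch and log2 library total on the right; filled points passed an adjusted p under 0.05 and bars are medians. On the left the supernumerary subunits of complex I and the small ones of complex III lie at medians of 0.33 and 0.42. The core subunits of complex I and the core and catalytic ones of complex III lie at -0.16 and -0.43. On the right the supernumerary and small groups lie at -0.01 and 0.00, the core groups at -0.16 and -0.37, and no gene passes.

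Among other genes of the pathway, calls in matrix enzymes and in assembly factors of complex I were mostly to the lower side in KO. Of 17 tricarboxylic acid cycle enzymes 7 were lower and 0 higher by edgeR, with a median log2 fold change of -0.20, where 13.4% of all tested genes were lower and 10.9% higher. Suclg1 of succinyl-CoA ligase was at -1.13 ± 0.21 (adjusted p = 0.00313), and Idh3b and Idh3g of NAD-dependent isocitrate dehydrogenase were at -0.74 ± 0.14 (adjusted p = 0.0036) and -0.85 ± 0.18 (adjusted p = 0.00486). Of 17 complex I assembly factors 7 were lower and 3 higher, with a median of -0.28, among them Acad9 at -0.86 ± 0.22 (adjusted p = 0.0109), Ecsit at -0.54 ± 0.12 (adjusted p = 0.00712) and Ndufaf3 at -0.64 ± 0.19 (adjusted p = 0.0254), all lower. The median log2 ratio over these 17 was -0.40, 0.05 and -0.61 in batches 1, 2 and 3.

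Assembly factors of complex IV went both ways, with 5 of 22 higher and 7 lower and a median of 0.12. Cox11, a copper chaperone, was at -2.50 ± 0.55 (adjusted p = 0.00625) and Cox19, a copper-handling protein of the intermembrane space, at -0.63 ± 0.15 (adjusted p = 0.00968), while Cmc1 and Cmc2 were higher at 0.44 ± 0.12 (adjusted p = 0.0149) and 0.51 ± 0.16 (adjusted p = 0.0278). Cox11 averaged only 6.12 ± 9.94 CPM in KO and 12.7 ± 7.76 CPM in WT. Its log2 ratios were -3.48, -0.37 and -2.77 in batches 1, 2 and 3. For complex III 2 of 7 were higher, Ttc19 at 0.58 ± 0.10 (adjusted p = 0.00268) and Uqcc3 at 0.62 ± 0.15 (adjusted p = 0.00955), and 1 lower, Uqcc1 at -0.60 ± 0.14 (adjusted p = 0.00877). None of 4 factors of complex II and none of 6 of ATP synthase was called, with medians of 0.01 each. Among 15 regulators of mitochondrial gene expression, with a median of 0.23, 3 were higher and 1 lower, near the 24.4% of all tested genes that were called either way: the coactivator Ppargc1a was higher at 0.47 ± 0.12 (adjusted p = 0.0135), as were Tfam, which packs and transcribes mitochondrial DNA, at 0.41 ± 0.12 (adjusted p = 0.021), and the helicase Twnk at 0.80 ± 0.25 (adjusted p = 0.0317). Yy1 was lower at -0.46 ± 0.15 (adjusted p = 0.0388). No gene of these lists was called once the log2 library total was a term, as none of 13375 was. With that term Tfam was at 0.56 ± 0.16 and Idh3g at -0.72 ± 0.28, while Uqcc3 was at 0.09 ± 0.16 and Cmc2 at 0.12 ± 0.21.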

How the data were processed

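The 11 deposited files hold unnormalized counts of reads per gene, 1 library each. Per the submitters' processing notes, the authors used STAR, HTSeq and GRCm38, with the versions, strand setting, counting options and handling of duplicates not given in the sources used here. Summary lines that name no gene, 5 per file, held 20.7% to 26.1% of counted alignments in KO and 18.3% to 20.4% in WT and stayed out of totals and tests. Alignments to several places were among them and were not counted, so genes with near-identical copies, such as Atp5l, Uqcrh, Atp5k and Atp5c1 with -ps copies, or Ndufs6b and Ndufa11b, are uncertain.

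Counts were fitted with edgeR 4.0.16 in R 4.3.3 (filterByExpr on group, TMM, quasi-likelihood with batch and genotype, 7 residual degrees of freedom), with two-sided p-values adjusted by Benjamini-Hochberg over 13375 genes at 0.05. The script was tested on simulated data. CPM means are TMM-scaled and not adjusted for batch, and within-batch log2 ratios used a pseudocount of 0.5 CPM. Slopes were fitted on the 7 WT libraries with 5 residual degrees of freedom. Standard errors are estimates over the square root of F. Without molecular identifiers a read need not be a separate molecule, so a limit from a count of 0 covers counting error only. DESeq2 1.42.0 and limma 3.58.1 served in alternatives.

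Members, lists and the division of subunits were chosen with earlier results of these data known. Members given by name (50) were those called, the 2 with the highest CPM and those with the most positive and most negative WT slope in each complex, and the isoform pairs; list genes were named where called, at most 4 a list by smallest p, and Sdhc, Uqcrb, Ndufs7, Ndufa9, Ndufa10, Ndufv3, Ndufb2 and Atp5e were added after their values were seen. Among the genes this rule gives, 1 member and 1 list gene are not reported here. Symbols matched a RefSeq position for 90 members, and promoters are from RefSeq (GRCm38.p6). Levels were not divided by gene length, so genes are not ranked by level.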

Additional observations from a re-analysis of the deposited data

Results flagged for a closer look

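In 4 of 108 groups checked (a quantity in the KO or the WT libraries), 1 library stood apart from the rest of its group by Dixon's ratio at the 95% level, a share that chance alone gives in about 1 in 20 groups. Cox4i2 was lowest in KO M456, at 55.4 CPM, with the nearest KO library at 96.8 CPM. Cox6a2 was highest in KO M390, at 18 CPM, with the nearest KO library at 4.35 CPM. Uqcr11 was lowest in KO M390, at 73.7 CPM, with the nearest KO library at 95 CPM. Cox6b2 was highest in WT M476, at 107 CPM, with the nearest WT library at 80.2 CPM.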

How the results depend on the processing

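Scaling with DESeq2 size factors, library totals alone or upper quartile factors, other filters, DESeq2's Wald test and limma-voom called 16 to 28 members higher and 4 to 6 lower in KO. Atp5mpl, Cycs, Ndufb3, Ndufs4 and Uqcr10 lost their call with limma-voom and without the filter, and Uqcr10 also with totals alone, while Cox8a, Cox6b2 and Sdhb gained one with the Wald test. Without a batch term 2 were lower, and the median log2 fold change of complex II was -0.04. With the log2 library total as a covariate, 0 genes and 0 members in either direction were called, and the medians were -0.03 in complexes I and IV, -0.06 in III and -0.08 in V. In batches 1 and 2 only, an alternative chosen after seeing the data, edgeR called 0 genes and 0 members, with 4 members at an unadjusted p under 0.05, and the medians were 0.12, 0.13 and 0.12 in complexes I, III and V. With animals tagged M only, 4 were higher and 2 lower. With batch 2 left out, 35 were higher and 10 lower. Leaving out each library in turn gave 335 to 4649 called genes, 0 to 39 members higher and 0 to 10 lower, with medians of 0.13 to 0.42 in complex I, -0.15 to 0.00 in II, 0.13 to 0.42 in III and 0.12 to 0.37 in V. The median WT slope of complex III was -1.15 with totals alone, -1.14 without the filter and -1.06 to -0.94 with a library left out, and that of complex V was -1.16 to -0.87.

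Signs turned without a batch term for Cox4i2 (0.02) and Cox6a2 (0.25), with animals tagged M only for Cox7b2 (0.35), and in batches 1 and 2 only for Cox4i2 (0.02), Cox7b2 (0.88) and Sdhd (-0.04). With the total as a covariate they turned for Atp5mpl (-0.03), Atp5o (-0.15), Cox7a1 (-0.10), Cox7b2 (0.55), Cox8a (-0.02), Ndufa2 (-0.01), Ndufb10 (-0.01), Ndufb3 (-0.01), Ndufb7 (-0.03), Sdhd (-0.08), Uqcr10 (-0.06) and Uqcr11 (-0.07). With a library left out they turned for Cox7b2 (-1.11 to 0.90), Atp5a1 (-0.36 to 0.10), Cox6a2 (-0.68 to 0.10), Cox4i2 (-0.31 to 0.03) and Sdhd (-0.03 to 0.11). The cause was not tested. No paired analysis was possible because the animal tags are shared by no libraries of different groups. Level per coding length was not run.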
